A study of Mus musculus with 80 samples.

Results

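Reads of the adult globin genes Hba-a1, Hba-a2 and Hbb-b1 and of Alas2 were followed in muscle stem cells (MuSCs) sorted from extraocular muscles (EOM) and from the tibialis anterior (TA), before grafting and after grafting into an injured TA. The 4 genes were chosen by name, with earlier results of these data known, from the 25899 genes of the deposited table. The levels that led to their choice are the levels given here, so they are described and no test is made of them. Donors were 10 male Tg:Pax7-nGFP mice of C57BL/6;DBA2 F1/JRj background, aged 7.6 weeks in Experiment 1 and 7 weeks in Experiment 2, in which nuclear GFP is driven by Pax7 sequences and marks MuSCs. From each donor, 500 EOM cells and 500 TA cells were kept as pre-graft samples, and further EOM and TA cells were injected into separate cardiotoxin-injured TAs of 1 Rag2-/-;γC-/- host of C57BL/6J background, which lacks T, B and NK cells but keeps its own red cells. GFP+ cells were sorted again on day 21 by the labels, a day within the 3 to 4 weeks of the study's methods, while its results give a later day. By its label, each graft library of the main comparisons was made from 9 to 67 cells, but for EOM graft Exp1-4, which had more. The EOM grafts that fail the study's quality table also had more by their labels. For some grafts that table gives other cell numbers. Of 40 RNA libraries, 30 pass the study's quality table: 8 EOM pre-graft, 8 TA pre-graft, 7 EOM graft and 7 TA graft. The main comparisons use these 30, which hold 963432 to 4169357 reads on genes. Settings that add left-out libraries are named where they are given.

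Haemoglobin of adult red cells is a tetramer of alpha and beta globin chains, each holding a haem group. Alpha chains come from the paired genes Hba-a1 and Hba-a2, and beta chains from the adult genes of the Hbb cluster. Alas2 is the erythroid form of 5-aminolevulinate synthase, which makes the first precursor of haem, while Alas1 serves other tissues. These transcripts rank among the most abundant of the erythroid lineage and remain in reticulocytes after the nucleus is lost. In skeletal muscle they are mainly known from blood held in the tissue.

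On GRCm38, Hba-a1 (ENSMUSG00000069919) lies on chromosome 11 at 32283511 to 32284465 and Hba-a2 (ENSMUSG00000069917) on the same strand at 32296489 to 32297298. Hbb-b1 lies on the minus strand of chromosome 7 at 103826534 to 103828096, and Alas2 (ENSMUSG00000025270) on chromosome X at 150547375 to 150570638. The row named Hbb-b1 carries the identifier ENSMUSG00000052305, which later annotation names Hbb-bs, and the row named Hbb-b2 carries ENSMUSG00000073940, later Hbb-bt. C57BL/6 mice carry the single haplotype of the Hbb cluster and DBA/2 mice the diffuse haplotype, so donors of the F1 background may hold both. The hosts hold only the former. The haplotypes of the donors are not given in the sources used here. The coding sequences of Hba-a1 and Hba-a2 are identical at 425 of 426 bases, and those of Hbb-bs and Hbb-bt at 440 of 441. How the deposited counts treat reads with several alignments is not given in the sources used here, so the split of reads within each pair is uncertain. The coding sequences of Alas2 and Alas1 are 58.9% identical, which leaves their reads separable.

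The 250 bases before each annotated start site (RefSeq, GRCm38.p6, all 4 genes matched) are shown because the 4 genes have reads in the same libraries. Capitals mark matches, on either strand, to the GATA motifs AGATAA or TGATAA, to CACCC and its longer form CCACACCC, to CCAAT and to TATAAA. The windows lie at chr11:32283422-32283671 for Hba-a1, chr11:32296242-32296491 for Hba-a2, chr7:103827929-103828178 on the minus strand for Hbb-b1 and chrX:150547167-150547416 for Alas2. They end at the RefSeq starts, and all 4 genes of the deposited table begin further upstream, within these windows (Hba-a2 by a few bases), so each distance is counted from the RefSeq start.
Hba-a1: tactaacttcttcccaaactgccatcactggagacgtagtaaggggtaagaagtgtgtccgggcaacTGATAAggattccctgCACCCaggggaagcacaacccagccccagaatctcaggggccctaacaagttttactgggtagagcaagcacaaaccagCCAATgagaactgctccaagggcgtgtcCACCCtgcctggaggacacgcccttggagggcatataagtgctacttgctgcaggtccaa
Hba-a2: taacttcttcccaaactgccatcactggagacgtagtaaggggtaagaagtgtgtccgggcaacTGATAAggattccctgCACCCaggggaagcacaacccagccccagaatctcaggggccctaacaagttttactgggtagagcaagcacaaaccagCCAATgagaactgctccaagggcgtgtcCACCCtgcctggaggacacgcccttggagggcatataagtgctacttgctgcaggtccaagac
Hbb-b1: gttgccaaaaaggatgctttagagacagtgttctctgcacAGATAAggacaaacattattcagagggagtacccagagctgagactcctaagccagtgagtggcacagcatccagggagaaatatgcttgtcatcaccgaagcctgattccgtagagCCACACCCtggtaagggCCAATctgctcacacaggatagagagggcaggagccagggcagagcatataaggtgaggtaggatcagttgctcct
Alas2: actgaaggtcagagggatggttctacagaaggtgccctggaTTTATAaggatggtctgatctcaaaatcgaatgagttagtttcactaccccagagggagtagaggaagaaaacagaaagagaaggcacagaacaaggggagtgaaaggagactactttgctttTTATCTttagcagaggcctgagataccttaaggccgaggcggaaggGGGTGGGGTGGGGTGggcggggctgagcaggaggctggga

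The windows of both alpha genes are identical over the 247 bases they share, since their annotated starts are offset by a few bases. A GATA motif is present in all 4 windows, at 183 to 178 bases before the start in Hba-a1, 186 to 181 in Hba-a2, 210 to 205 in Hbb-b1 and, on the opposite strand, 86 to 81 in Alas2. Of 32851 promoter windows of this length, 16.6% hold one or the other GATA motif, 9.99% AGATAA and 7.94% TGATAA. The motif CACCC is also found in all 4 windows, against 52.0% of all windows, and the longer CCACACCC only in that of Hbb-b1, against 3.2%. CCAAT is found in the 3 globin windows at 33.8% of all windows, and TATAAA only in Alas2 at 12.4%. Alas2 holds 3 adjoining CACCC matches on the opposite strand, 40 to 26 bases before its start. These are matches of letters and not measured binding.

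Each library either held many globin reads or close to none. Summed over Hba-a1, Hba-a2, Hbb-b1 and Hbb-b2, 8 of the 30 libraries held 0 reads, 9 held 1 to 28 reads, and 13 held 2740 to 25289 reads. A count of 0 allows up to 3 reads, or 7.92e-05% to 0.000311% of the reads on genes in those 8 libraries, for counting error only. In the 13 libraries globin reads made up 0.102% to 0.947% of the reads on genes. The 13 were 3 of 8 EOM pre-graft libraries, 3 of 8 TA pre-graft libraries, 5 of 7 EOM grafts and 2 of 7 TA grafts. The 13 are called libraries with globin reads here, and the others held at most 28. They were the same 13 libraries for Hba-a1, Hbb-b1 and Alas2, and 12 of them for Hba-a2. All 40 libraries give 4 of 10 EOM pre-graft, 4 of 10 TA pre-graft, 6 of 10 EOM grafts and 4 of 10 TA grafts with over 100 reads of Hbb-b1, so the gap between the grafts of EOM and TA narrows with the libraries left out, of which 1 holds only 302 reads on genes. In bulk samples, few cells with much of a transcript and many cells with little of it cannot be told apart.

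**Figure D1:**
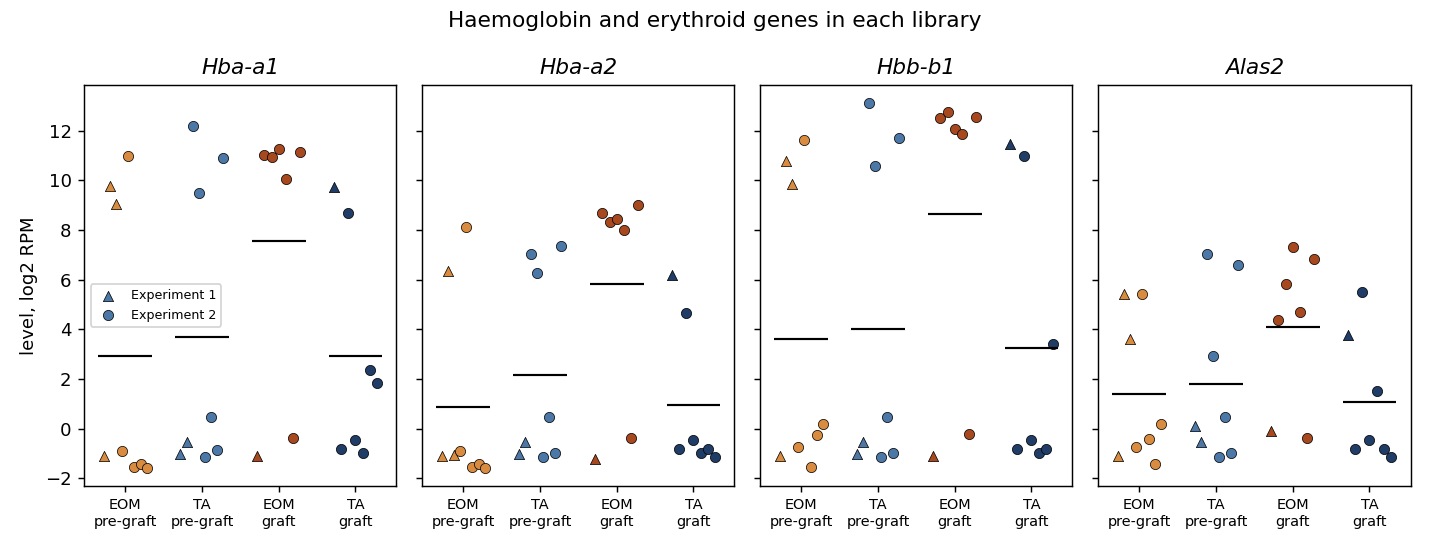
Level in log2 RPM (library-scaled reads) of Hba-a1, Hba-a2, Hbb-b1 and Alas2 (panels) in each of the 30 libraries by group, with triangles for Experiment 1, circles for Experiment 2 and lines at group means. Points lie in an upper and a lower band in every group, and the upper band holds 5 of 7 EOM grafts for each gene.

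Hba-a1 was read 980, 1354 and 5717 times in the EOM pre-graft libraries of donors Exp1-5, Exp1-4 and Exp2-2, and 0 times in the other 5. In TA pre-graft it had 1703, 4697 and 8445 reads in Exp2-2, Exp2-6 and Exp2-1, 1 read in Exp2-5 and 0 in 4 libraries. In EOM grafts it had 1827, 2362, 3633, 3888 and 4344 reads in Exp2-4, Exp2-1, Exp2-3, Exp2-2 and Exp2-6, 1 in Exp1-4 and 0 in Exp2-5. In TA grafts it had 806 reads in Exp2-2 and 1782 in Exp1-3, against 8, 7, 0, 0 and 0 elsewhere. None of the 30 libraries fell between 8 and 806 reads, though 3 of the 10 left out did (315, 683 and 782 reads), and all 4 groups had libraries on both sides of that gap, so the groups overlapped. Scaled to library size, as RPM, the highest library was TA pre-graft Exp2-1 at 4624 RPM, and the group medians were 0 RPM in EOM pre-graft, 0.279 in TA pre-graft, 1963 in EOM grafts and 3.54 in TA grafts.

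Hba-a2, the second alpha copy, had 125 and 800 reads in EOM pre-graft Exp1-4 and Exp2-2, and 183, 238 and 408 in TA pre-graft Exp2-2, Exp2-1 and Exp2-6. It had 440, 465, 520, 639 and 983 reads in EOM grafts Exp2-4, Exp2-1, Exp2-3, Exp2-2 and Exp2-6, and 49 and 153 in TA grafts Exp2-2 and Exp1-3. The other 18 libraries held no read of it. EOM pre-graft Exp1-5 is the single library with 980 reads of Hba-a1 and 0 of Hba-a2.

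Hbb-b1, the adult beta globin with most reads, had 1720, 2721 and 9102 reads in EOM pre-graft Exp1-5, Exp1-4 and Exp2-2, and 0 to 3 in the other 5. TA pre-graft Exp2-2, Exp2-6 and Exp2-1 held 3683, 8280 and 16147 reads, and the other 5 none. EOM grafts Exp2-3, Exp2-4, Exp2-1, Exp2-6 and Exp2-2 held 6386, 6533, 6638, 11361 and 13653 reads, and Exp1-4 and Exp2-5 held 1 each. TA grafts Exp2-2 and Exp1-3 held 3881 and 5918 reads, Exp2-6 held 21 and the other 4 none. The levels of the 5 EOM grafts with reads ran from 3756 to 6893 RPM, above both TA grafts with reads at 2012 and 2830 RPM, but TA pre-graft Exp2-1 at 8841 RPM was higher than all of them.

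Alas2 was read 23, 67 and 122 times in EOM pre-graft Exp1-5, Exp1-4 and Exp2-2, and 0 to 3 times in the other 5. In TA pre-graft it had 18, 238 and 240 reads in Exp2-2, Exp2-6 and Exp2-1, and 0 to 2 elsewhere. EOM grafts Exp2-1, Exp2-4, Exp2-2, Exp2-6 and Exp2-3 held 24, 45, 112, 215 and 234 reads, and Exp1-4 and Exp2-5 held 2 and 0. TA grafts Exp1-3 and Exp2-2 held 29 and 87 reads, and the other 5 held 0 to 5. The gap was narrower than for the globins, from 5 to 18 reads, yet it separated the same libraries as that of Hbb-b1.

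**Figure D2:**
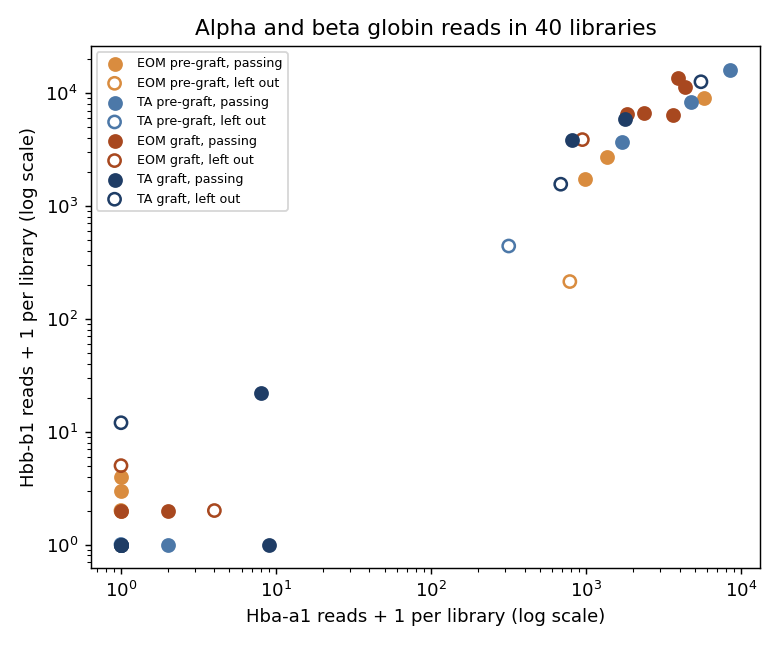
Reads plus 1 of Hbb-b1 against Hba-a1 on log scales in all 40 libraries, filled for the 30 passing libraries and open for the 10 left out, coloured by group. Filled points lie either at up to 8 Hba-a1 and 21 Hbb-b1 reads or from 806 and 1720 reads up.

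By donor, all 4 libraries of Exp2-2 were among the 13, and none of the 4 of Exp2-5, which held 1 to 8 globin reads each. For donors Exp2-1 and Exp2-6 the TA pre-graft and EOM graft libraries were among the 13, while EOM pre-graft and TA graft were not, with 28 globin reads in TA graft Exp2-6. For donor Exp2-4 the EOM graft alone was among them, out of 4 libraries. Of 7 donors with both pre-graft libraries, 1 had reads in both, 2 in TA only, 1 in EOM only and 3 in neither. Of 6 donors with both grafts, which shared a host, 1 had reads in both, 4 in the EOM graft only, 0 in the TA graft only and 1 in neither. No test was made of these counts. Experiment 1 gave 2 of 3 EOM pre-graft, 0 of 2 TA pre-graft, 0 of 1 EOM graft and 1 of 1 TA graft, and Experiment 2 gave 1 of 5, 3 of 6, 5 of 6 and 1 of 6. The higher number in EOM than in TA grafts is therefore held by Experiment 2, and Experiment 1 has 1 passing library for each graft.

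As group means, the members were higher in EOM grafts than in EOM pre-graft cells and than in TA grafts, by differences close to the spread between libraries. The mean level of Hba-a1 was 7.56 ± 5.68 log2 RPM (SD, n = 7) in EOM grafts, 2.91 ± 5.84 (n = 8) in EOM pre-graft, 3.68 ± 6.0 (n = 8) in TA pre-graft and 2.91 ± 4.51 (n = 7) in TA grafts. That of Hbb-b1 was 8.63 ± 6.36, 3.60 ± 5.97, 4.02 ± 6.50 and 3.26 ± 5.65 in the same order. Hba-a2 had 5.83 ± 4.56, 0.87 ± 3.97, 2.18 ± 3.94 and 0.96 ± 3.09, and Alas2 4.08 ± 3.13, 1.38 ± 2.95, 1.81 ± 3.34 and 1.09 ± 2.63. EOM grafts stood first in this order for all 4 genes, and the neighbours in it overlap for every gene.

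The log2 difference of EOM grafts over EOM pre-graft was 4.65 (SE 2.99) for Hba-a1, 4.97 (SE 2.20) for Hba-a2, 5.03 (SE 3.18) for Hbb-b1 and 2.70 (SE 1.57) for Alas2. The median over all genes of this comparison was -1.48. TA grafts over EOM grafts gave -4.65 (SE 2.74), -4.88 (SE 2.08), -5.37 (SE 3.21) and -3.0 (SE 1.54) in the same order, with a median over all genes of 0.09. These contrasts share the EOM graft libraries. TA grafts over TA pre-graft gave -0.77 (SE 2.77), -1.22 (SE 1.85), -0.76 (SE 3.17) and -0.72 (SE 1.57), against a median over all genes of -1.09, and TA over EOM before grafting gave 0.77 (SE 2.96), 1.31 (SE 1.98), 0.42 (SE 3.12) and 0.43 (SE 1.58), against -0.30. With the donor mouse as block, which keeps only donors with both libraries passing, TA over EOM before grafting gave 2.34, 1.51, 2.05 and 1.17. That fit leaves out EOM pre-graft Exp1-5, which holds globin reads, and TA pre-graft Exp2-3, which holds none, so it differs from the main fit in libraries as well as pairing. TA grafts over TA pre-graft then gave -1.37, -1.61, -1.41 and -1.06. For EOM grafts over EOM pre-graft the blocked values were 4.39, 3.89, 4.72 and 2.13, and for TA over EOM grafts -7.23, -6.93, -8.36 and -4.14. With all 40 libraries the EOM graft differences were 1.89, 2.23, 2.52 and 0.48, and TA over EOM before grafting gave -0.01 for Hbb-b1 and -0.54 for Alas2. That setting holds EOM pre-graft Exp1-1, with 302 reads on genes, and TA pre-graft Exp1-5, with 56368, where a gene with no read stands at 10.7 and 4.40 log2 RPM. Without both, a setting chosen after seeing the data, the EOM graft differences were 2.61, 3.17, 3.21 and 1.38, and TA over EOM before grafting was positive for all 4 genes (0.76, 1.08, 0.71 and 0.10). Among the 30 libraries, the difference before grafting turned negative without TA pre-graft Exp2-1 for Hba-a1 (-0.44), Hbb-b1 (-0.88) and Alas2 (-0.32), without Exp2-6 for the same genes (-0.26, -0.68 and -0.25), and without Exp2-2 for Hba-a1 and Hbb-b1 (-0.05 and -0.52). For Hbb-b1 it did so too without any 1 of the 5 EOM pre-graft libraries with at most 3 reads (Exp1-3, Exp2-1, Exp2-4, Exp2-5 and Exp2-6). In TA grafts the difference turned positive without TA pre-graft Exp2-1 for Hba-a1 (0.44), Hbb-b1 (0.54) and Alas2 (0.02), without Exp2-6 for Hba-a1 (0.26) and Hbb-b1 (0.34), and without Exp2-2 for both (0.06 and 0.18). It did so as well when libraries were centred on their median, for Hba-a1 (0.12), Hbb-b1 (0.13) and Alas2 (0.17), or scaled without mitochondrial genes (0.04, 0.05 and 0.09). With all libraries it was 0.50 for Hbb-b1 and 0.01 for Hba-a2, and without the TA pre-graft library of low depth 0.48, 0.22 and, for Alas2, 0.11. The EOM graft contrasts kept their sign in all these settings. In Experiment 2 alone TA over EOM before grafting gave 4.07, 2.63, 3.78 and 1.88 and TA grafts over TA pre-graft -3.40, -3.08, -3.73 and -1.85, larger than over both experiments. In that setting EOM grafts over EOM pre-graft gave 7.90, 6.47, 8.40 and 4.17, and TA over EOM grafts -7.23, -6.93, -8.36 and -4.14. For TA over EOM grafts the blocked fit uses the same libraries, since all donors with both grafts belong to Experiment 2, so its equal values are no separate result.

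Within the 13 libraries with globin reads, the order of levels per kilobase of transcript was fixed. Hbb-b1 stood above Hba-a1 in 13 of 13, Hba-a1 above Hba-a2 in 13 of 13, and Hba-a2 above Alas2 in 12 of 13, the exception being EOM pre-graft Exp1-5. The medians per kilobase were 5350 RPM for Hbb-b1, 2727 for Hba-a1, 299 for Hba-a2 and 21.4 for Alas2, over transcripts of 628, 699, 554 and 2037 bases in GENCODE M21. The spread of each gene over these libraries was wide, from 1476 to 14079 RPM per kilobase for Hbb-b1.

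The ratio of beta to alpha reads was higher in most grafts than before grafting. Hbb-b1 had 1.59, 1.76 and 2.01 reads per Hba-a1 read in EOM pre-graft Exp2-2, Exp1-5 and Exp1-4, and 1.76, 1.91 and 2.16 in TA pre-graft Exp2-6, Exp2-1 and Exp2-2. EOM grafts had 1.76, 2.62, 2.81, 3.51 and 3.58 in Exp2-3, Exp2-6, Exp2-1, Exp2-2 and Exp2-4, and TA grafts 3.32 and 4.82 in Exp1-3 and Exp2-2. Thus 6 of 7 grafts lay above all 6 pre-graft libraries, and EOM graft Exp2-3 lay among them. The mean of Hbb-b1 per Hba-a1 was 1.87 ± 0.20 (SD, n = 6) before and 3.20 ± 0.95 (n = 7) after grafting. With Hbb-b1 and Hbb-b2 summed over Hba-a1 and Hba-a2 summed, which does not rest on the split within each pair, pre-graft libraries had 1.41 to 1.98 and grafts 1.65 to 4.61, again with Exp2-3 alone among the former. Both genes are members, so no test is given. Graft cells were taken from host muscle and pre-graft cells from donor muscle. Grafting and the change from a donor of F1 background to a C57BL/6J host therefore cannot be told apart here.

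The share of Hba-a2 in alpha reads was 0%, 8.45% and 12.3% in EOM pre-graft, 2.74%, 7.99% and 9.70% in TA pre-graft, 5.73% and 7.91% in TA grafts, and 12.5% to 19.4% in the 5 EOM grafts. All 5 EOM grafts thus stood above the other 8 libraries, though the lowest, at 12.5%, was close to EOM pre-graft Exp2-2 at 12.3%. Hbb-b2, which is no member but the neighbouring beta globin, made up 1.11% to 6.96% of beta reads, and its ranges overlapped across the 4 groups, from 1.22% to 6.92% in EOM grafts and 1.18% to 6.96% in TA pre-graft. Alas2 had 2.48 to 21.2 reads per 1000 globin reads, with medians of 8.94 before and 5.89 after grafting and overlapping ranges.

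**Figure D3:**
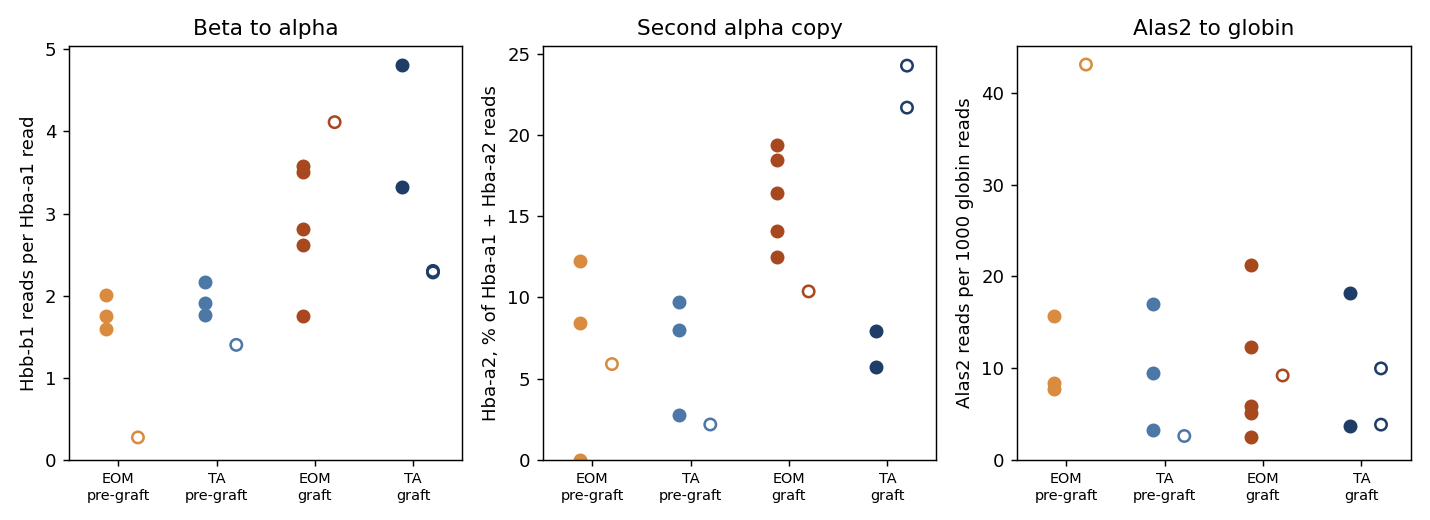
Ratios between members in single libraries by group: reads of Hbb-b1 per read of Hba-a1, percent of Hba-a2 in alpha globin reads, and reads of Alas2 per 1000 globin reads. Filled points are the 13 passing libraries with globin reads and open points the 5 left-out libraries with them, and the beta to alpha ratio is at most 2.16 in filled pre-graft points and reaches 4.82 in grafts.

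Globin and Alas2 reads came without most other erythroid transcripts. Of 13 erythroid markers, 8 are neither adult globins nor Alas2, and those described here follow. Rhag, of the Rh complex of the red cell membrane, had 0 reads in all 30 libraries. Slc4a1, the band 3 anion exchanger, had 6 reads in TA graft Exp1-3 and none elsewhere. Gata1, the master transcription factor of the erythroid lineage, and Car1, carbonic anhydrase 1, had 1 read each in 1 library. Klf1, which activates the adult beta globin gene, had 6 reads in EOM pre-graft Exp1-5 and 1 in TA pre-graft Exp2-5. Spna1, erythroid alpha spectrin, had 1 to 28 reads in 11 libraries, 8 of them with globin reads, and its highest count was in TA pre-graft Exp2-1, the library highest in Hba-a1 and Hbb-b1. Ermap had 1 to 16 reads in 8 libraries, 3 of them with globin reads.

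The wider pathway was given by 10 lists of globin, haem, iron and red cell genes, which hold 88 genes of the table without the members, and these were tested. A gene was called at an adjusted p under 0.05 (limma, Benjamini-Hochberg over all genes tested) and a log2 fold change beyond 1. Before grafting, 1 of 54 tested list genes was called higher in TA and 1 higher in EOM, beside 1.26% and 3.31% of all 13217 genes tested. Hmox1, the inducible haem oxygenase that breaks haem down, was higher in TA by 1.80 on the log2 scale (SE 0.30, limma adjusted p = 0.000388). Lmo2, a partner of Tal1 and Gata1 in erythroid and endothelial cells, was lower in TA (-1.38 on the log2 scale, SE 0.14, limma adjusted p = 8.84e-07), with 395 to 1007 reads in EOM against 70 to 368 in TA. Both calls held in all 11 alternative settings. With the donor mouse as block 2 list genes were higher and 2 lower, beside 266 and 439 of 13069 genes tested.

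After grafting, more list genes were called lower than higher, as was so for all genes. The median share of mitochondrial reads moved with this, from 3.56% in EOM pre-graft to 33.04% in EOM grafts and from 10.7% in TA pre-graft to 25.3% in TA grafts. In TA, 2 of 50 tested list genes were called higher and 17 lower, beside 3.79% and 30.9% of all genes tested, and the median log2 fold change was -1.19 for the lists and -1.09 for all genes. In EOM, 5 of 54 were called higher and 24 lower, beside 3.51% and 55.8% of all genes, with medians of -1.21 and -1.48. With the donor mouse as block 2 were called higher in EOM, beside 293 of 12722 genes tested. Between TA and EOM grafts 0 of 52 were called in either direction, beside 0.0% of all 12377 genes higher and 0.0% lower. At an unadjusted p under 0.05 that contrast had 2 list genes and 452 of all genes, and edgeR and DESeq2 called 0 list genes each. The lower calls depend on the scaling, since centring each library on its median gave 3 in place of 17 in TA and 2 in place of 24 in EOM, scaling without mitochondrial genes gave 4 and 0, and edgeR gave 1 in each. The same was so for all genes. Of 13076 tested in TA, 4046 were lower, against 743 when centred, 832 without mitochondrial genes and 402 in edgeR. Of 13094 tested in EOM, 7302 were lower, against 634, 8 and 380 in that order. Without TA graft Exp2-3 the 17 list genes became 10, and the 4046 of all genes became 2972. With the donor mouse as block, the lower calls of Blvrb, Xpo7, Tmem14c and Fth1 in TA and of Blvrb, Xpo7, Hfe, Abcb6, Mfsd7b, Blvra, Ireb2 and Ppox in EOM were lost.

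**Figure D4:**
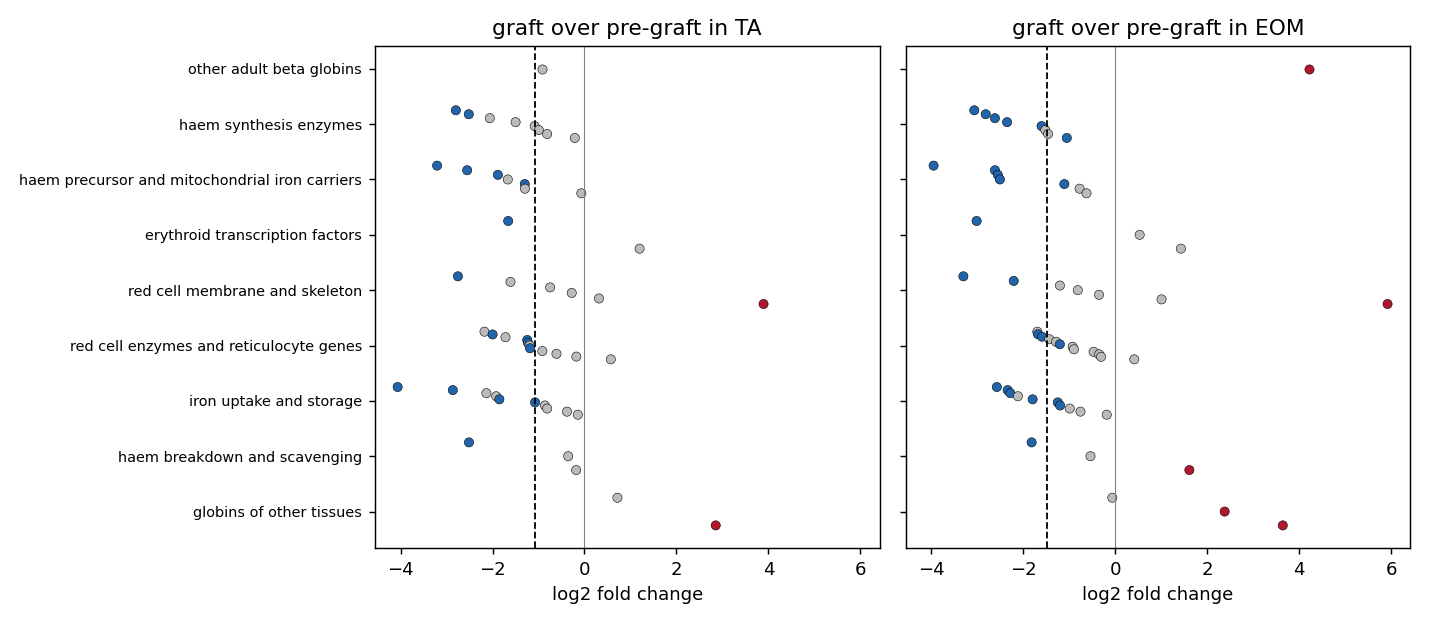
Log2 fold change of graft over pre-graft for each tested list gene, by list, in TA (left) and EOM (right). Red points were called higher, blue lower and grey not called, and the dashed lines mark the median over all genes tested, -1.09 in TA and -1.48 in EOM.

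Of the other globins, Hbb-b2 had 0 to 102 reads in EOM pre-graft and 0 to 824 in EOM grafts, with reads in the same 13 libraries as Hbb-b1 and at most 3 elsewhere. In EOM it was higher after grafting by 4.22 on the log2 scale (SE 1.62, limma adjusted p = 0.0300), which is not independent of the members given its sequence. This call was lost with the donor mouse as block, with all libraries, whether or not those of low depth entered, and in DESeq2 (adjusted p up to 0.0838) and without any 1 of 9 of the 15 libraries, 5 EOM pre-graft (Exp1-3, Exp2-1, Exp2-4, Exp2-5, Exp2-6) and 4 EOM graft (Exp2-1, Exp2-2, Exp2-3, Exp2-6). The 6 embryonic and minor globins in the table had at most 13 reads in any library, and Hba-x and Hbb-bh2 none. Of the globins of other tissues, 2 of 3 tested were called higher after grafting in EOM and 1 of 2 tested in TA, beside 3.51% and 3.79% of all genes. Cygb, cytoglobin, rose by 2.85 on the log2 scale in TA (SE 0.82, limma adjusted p = 0.0123) and 3.64 in EOM (SE 0.84, limma adjusted p = 0.00210), where the call was lost with all libraries (adjusted p = 0.151) but not once EOM pre-graft Exp1-1 was left out of them. Mb, the myoglobin of muscle fibres, rose in EOM by 2.38 (SE 0.72, limma adjusted p = 0.00953). This call was lost with the donor mouse as block and with all libraries, whether or not those of low depth entered. The summed level of 10 myofibre markers, Mb among them, had medians of 107 RPM in EOM pre-graft and 464 RPM in EOM grafts. Ngb, neuroglobin, had at most 8 reads and was tested but not called in EOM.

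The enzymes of haem synthesis were read in MuSCs with and without globin reads. Alas1 had 10 to 299 reads and was detected in all 30 libraries, Ppox in 29 and Fech, which inserts iron into the ring, in 28. In TA, 2 of 8 enzymes were called lower after grafting (30.9% of all genes), Fech by -2.80 and Urod by -2.52 on the log2 scale (limma adjusted p = 0.00764 and 0.0150). In EOM, 6 of 8 were called lower (55.8% of all genes), among them Uros (-2.82) and Alad (-2.62). None was called higher, while Alas2 is higher in its group mean in EOM grafts. The list medians of -1.29 in TA and -1.98 in EOM stand against -1.09 and -1.48 for all genes.

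Among the carriers of haem precursors and mitochondrial iron, Tmem14c, Mfsd7b and Abcb10 were the most abundant. Slc25a38, the glycine carrier for haem synthesis, fell on the log2 scale in TA (-2.55) and EOM (-2.55), and so did Abcb10 (-1.88 and -2.62). Tmem14c was called in TA (-1.30), and Abcb6 (-2.51) and the haem exporter Mfsd7b (-1.11) in EOM. In all, 4 of 7 were called lower in TA and 5 of 7 in EOM, beside 30.9% and 55.8% of all genes. The limma adjusted p of the genes named ran from 0.0237 to 0.0420 in TA and from 0.00542 to 0.0440 in EOM. Slc25a37, mitoferrin 1 of erythroid cells, was not called (-1.29 and -0.63). Under median centring, edgeR or DESeq2, Mfsd7b turned to 0.14, 0.06 and 0.16, and without mitochondrial genes in the scaling to 1.16.

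Of 10 erythroid transcription factors, 7 had a median of 0 reads per library. Lmo2, the most abundant, fell in TA (-1.66 on the log2 scale, SE 0.52, limma adjusted p = 0.0190) and EOM (-3.02, SE 0.42, limma adjusted p = 7.61e-05). Tal1, a partner of Gata1 that endothelial cells also express, had 0 to 88 reads, and its log2 fold changes of 1.2 and 1.43 did not pass the test. Zfpm1, a cofactor of Gata1, had 0 to 22 reads.

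Of 18 red cell membrane and skeleton genes, Aqp1, Epb4.1 and Ank1 were the most abundant. Aqp1 is the water channel of red cells and of capillary endothelium. It had 0 to 769 reads in EOM pre-graft, 1 to 3716 in TA pre-graft, 119 to 6647 in EOM grafts and 1570 to 7744 in TA grafts. On the log2 scale it rose by 3.89 in TA (SE 1.05, limma adjusted p = 0.00878) and 5.92 in EOM (SE 1.39, limma adjusted p = 0.00231), calls that held in all 11 alternative settings. Ank1, erythroid ankyrin, fell in both muscles (-2.75 and -2.21) and Spnb1, erythroid beta spectrin, in EOM (-3.30) (limma adjusted p = 0.00640, 0.00229 and 0.00191), while Epb4.1 was not called.

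Among 17 red cell enzymes and reticulocyte genes, the peroxidase Prdx2 fell in TA (-1.24) and EOM (-1.21), as did the biliverdin reductase Blvrb (-1.23 and -1.60) and Xpo7 (-1.18 and -1.68), and Fam46c was called in TA (-2.0). In all, 4 of 11 tested were called lower in TA and 3 of 12 in EOM, beside 30.9% and 55.8% of all genes. Bnip3l, which clears mitochondria in reticulocytes, had 30 to 426 reads and was not called (-0.61 in TA and -0.90 in EOM, short of the fold required). Of 12 genes of iron uptake and storage, 10 were tested, and 4 were called lower in TA (30.9% of all genes): Trf, transferrin, by -4.06, Aco1 by -2.86, the iron transporter Slc11a2 by -1.85 and the ferritin heavy chain Fth1 by -1.07. In EOM 6 of 10 were, near the share of all genes (55.8%), the largest changes being the iron exporter Slc40a1 (-2.58), Hfe (-2.34) and Trf (-2.28). The ferritin light chain Ftl1 (-0.14 and -0.19) and the transferrin receptor Tfrc (-0.38 and -0.76) did not pass. Of haem breakdown genes, Hmox1 rose in EOM by 1.61 (SE 0.51, adjusted p = 0.0117) with 225 to 2084 reads before and 315 to 4567 after grafting, a call lost with the donor mouse as block and in Experiment 2 alone (adjusted p up to 0.0890). Blvra fell in TA (-2.51) and EOM (-1.82), and Hmox2 was not called.

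Pax7 and Myod1 served as a check of the sorted cells. Both were read in all 30 libraries, Pax7 11 to 2699 times and Myod1 10 to 2906 times. The sum of 12 MuSC markers ran from 14224 to 25385 RPM before grafting and from 318 to 15956 RPM in grafts.

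The genes most like the members were found by Pearson correlation, over the 30 libraries, of log2 RPM centred on each group mean with the mean of the 4 members centred likewise, among 14428 genes. Members fall into an upper and a lower band. Such a correlation thus mainly reflects how a gene's level differs between the libraries of those bands, and no p is given. Hbb-b2 came first (r = 0.98). The next 9 were Pdgfd, a platelet-derived growth factor (0.79), Parvb, an adhesion protein (0.73), Pfkfb3, a regulator of glycolysis (0.72), 9930111J21Rik1 (0.72), Cd38, an NAD-consuming ectoenzyme (0.71), Gbp9, a guanylate-binding protein (0.71), Mmrn2, an extracellular protein of endothelium (0.71), Gm15051 (0.71) and Filip1 (0.71). None but Hbb-b2 is a globin, haem or red cell gene of the lists, where Tal1 (0.55) and Aqp1 (0.54) came next. Unlike Hbb-b2, these genes were also read where globin was not: Pfkfb3 had at least 50 reads in the 13 libraries with globin reads but up to 704 in the others, and Cd38 up to 423. Pdgfd had no read in 1 of the 13 and up to 138 in the others.

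Of the other cell types, endothelial markers moved with the members the most. The summed level of 10 endothelial markers, log2 transformed and centred by group, correlated with the members at r = 0.64 (n = 30). For the other lists r was 0.26 for erythroid markers without the members and Hbb-b2, -0.25 for platelets, -0.16 for neutrophils, 0.00071 for macrophages, 0.24 for lymphocytes, 0.10 for fibro-adipogenic cells, -0.0014 for myofibres and -0.17 for MuSCs. In TA pre-graft the 3 libraries with globin reads had endothelial sums of 1645, 2671 and 2102 RPM, and the other 5 had 48.4 to 599 RPM. In EOM pre-graft they had 842, 354 and 222 RPM against 204 to 729 RPM, and in EOM grafts 1012 to 6468 RPM against 284 and 1184 RPM. In TA grafts they had 6754 and 4557 RPM against 1336 to 7160 RPM. Across groups the order differed: the median sum was highest in TA grafts (4557 RPM), then EOM grafts (3356), TA pre-graft (568) and EOM pre-graft (260), while globin reads were in most EOM grafts and few TA grafts. All 10 endothelial markers had reads in each group, and the most abundant, Cldn5, a tight junction protein of endothelium, had 0 to 6634 reads. The part of endothelial cells in the globin levels was not tested.

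**Figure D5:**
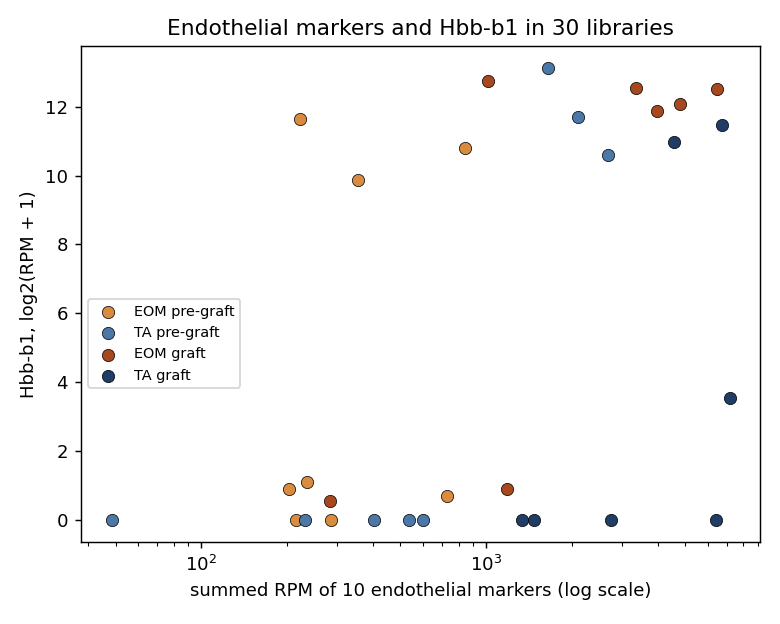
Hbb-b1 as log2(RPM + 1) against the summed RPM of 10 endothelial markers (log scale) in the 30 libraries, coloured by group. The 3 TA pre-graft libraries with Hbb-b1 reads lie at 1645 to 2671 RPM and the 5 without at up to 599 RPM, while a TA graft with 21 reads of Hbb-b1 lies at 7160 RPM.

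Markers of other blood cells were low. The platelet sum was 0 to 114 RPM, led by Itga2b, and the neutrophil sum 0 to 39.4 RPM, with S100a8, Ltf and Retnlg at 0 reads and Lcn2, the most abundant, at up to 65. The lymphocyte sum was 0 to 59.8 RPM, led by Cd79a with up to 39 reads, and Cd3g, Nkg7 and Gzma had 0 reads throughout. The macrophage sum stayed within 0 to 134 RPM but for EOM pre-graft Exp2-2 at 2334 RPM, which holds globin reads, and EOM graft Exp2-5 at 738 RPM, which does not, with Lyz2 at up to 3233 reads. Dpt led the fibro-adipogenic markers (38 to 6477 reads) and Acta1 those of myofibres (0 to 779 reads). Of technical measures centred by group, the number of sorted cells correlated with the members at r = -0.31, total reads at 0.21, the percent of mitochondrial reads at 0.12, reads in exons at -0.05 and in genes at -0.10. All pre-graft libraries held 500 cells, so the value for cell number rests on the grafts alone. The spread of the members among pre-graft libraries lowers its size. The grafts with globin reads came from 9, 16, 33, 35 and 46 cells in EOM and 24 and 67 cells in TA by their labels, the EOM grafts without from 60 in Exp2-5 and more in Exp1-4, and the TA grafts without from 16, 16, 26, 66 and 67. Their part in the globin levels was not tested.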

How the data were processed

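RNA of sorted GFP+ MuSCs was sequenced from 40 samples by a method that splits DNA and RNA of the same cells; 40 bisulphite libraries were not analysed here. Per the labels and methods, the authors trimmed reads with Trim Galore 0.4.4, aligned them to GRCm38 with HISAT2 2.1.0, and deposited Seqmonk log2 RPM values per gene. The deposited read count per library and percent of reads in genes, exons and mitochondrial genes come from the authors' quality report. The counting rule, annotation release and treatment of reads with several alignments are not given in the sources used here.

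Of 25965 rows, 66 repeats were dropped. Whole reads were recovered from the steps of the log2 values, with genes at the lowest value taken as 0 reads (a floor worth 0.9 read in the deposited values); 99.9971% of values came out whole within 0.05 read. Reads recovered on genes sum to another total than the one the authors scaled by. The 30 libraries passing the study's quality table hold 3326270 to 14402975 reads in all, and 1 read is worth 0.350 to 1.55 RPM. Intervals and floors cover counting error only.

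The 4 members and the lists were chosen with earlier results of these data known. Members are described without tests, and groups come from the labels. List genes above log2 RPM 1 in at least 4 libraries of a comparison were tested with limma 3.58.1 (R 4.3.3) on log2 RPM, with the 2 groups compared in each fit and Benjamini-Hochberg adjustment over all genes. Of 93 list symbols, 90 were matched, 82 by symbol and 8 by Ensembl identifier. Alternatives were log2(RPM + 1), other filters, the donor mouse as block, Experiment 2 alone, all libraries, those of them with over 100000 reads on genes (chosen after seeing the data), other scalings, edgeR 4.0.16, DESeq2 1.42.0 on the recovered reads and leaving out each library; tests were tried on simulated data first. Donor EOM and TA samples of the same number come from 1 mouse, which gives the pairing; correlations of paired deviations ran from -0.218 to 0.177. Named were the members, the 3 most abundant genes of each list, called genes (the 3 largest changes where a list had over 5), the 10 genes most like the members, the leading gene of each cell type list, and Pax7 and Myod1; other genes named, such as Slc25a37 and the erythroid markers, were chosen after their values were seen. Some genes that this rule names are not reported here.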

Additional observations from a re-analysis of the deposited data

Results flagged for a closer look

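The 10 libraries that fail the study's quality table enter no main comparison, only the settings that add left-out libraries. Of them, 5 held over 100 reads of Hbb-b1. TA graft Exp1-1 held 5483 reads of Hba-a1, 1519 of Hba-a2, 12617 of Hbb-b1 and 77 of Alas2. EOM graft Exp1-1, of the same donor, held 942, 109, 3875 and 46 in that order, and TA graft Exp1-5 683, 219, 1559 and 25. EOM pre-graft Exp2-3 held 782 reads of Hba-a1, 49 of Hba-a2, 213 of Hbb-b1 and 45 of Alas2. TA pre-graft Exp1-1 held 315 reads of Hba-a1, 7 of Hba-a2 and 441 of Hbb-b1. Hbb-b1 had 11 reads in TA graft Exp1-4 and 4 in EOM graft Exp1-3. These values stand above the 3 reads that a count of 0 allows.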

How the results depend on the processing

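Member differences of EOM grafts over EOM pre-graft and of TA over EOM grafts kept their sign in every setting run; the other contrasts did not, as given above. Before grafting, beside 166 and 437 of all genes, 1 list gene was called higher and 1 lower. With the donor mouse as block (pairing) both counts were 2, with all libraries 2 were higher, and with log2(RPM + 1), the stricter filter, edgeR, DESeq2 or all libraries with over 100000 reads on genes (chosen after seeing the data) 2 were lower. Leaving out single libraries gave 1 to 2 lower, with 2 without TA pre-graft Exp1-3, Exp1-4 or Exp2-3. In TA after grafting, 2 were higher, or 4 in DESeq2, and 17 lower, or 8 in Experiment 2 alone, 4 when scaled without mitochondrial genes, 3 when centred, 1 in edgeR and 2 in DESeq2, and 10 to 22 with single libraries left out. Of all genes in TA, 496 were higher, or 1151 in DESeq2. Lower in TA were 4046 of all genes, or 1803, 832, 743, 402 and 545 in the order of the first 5 settings. In EOM, 5 list genes were higher, or 2 with the donor mouse as block and 2 with all libraries, and 24 lower, or 0 when scaled without mitochondrial genes, 2 when centred, 1 in edgeR and 2 in DESeq2. Of all genes in EOM, 460 were higher, or 293 with the block and 142 with all libraries. Lower in EOM were 7302 of all genes, or 8, 634, 380 and 546 in the same order. The block moved no other total over the lists by over 1.5 times. Some log2 fold changes turned positive: Tmem14c in TA in DESeq2 (0.0412), and in EOM, scaled without mitochondrial genes, Mfsd7b (1.16), Prdx2 (1.06), Blvrb (0.67), Xpo7 (0.58), Blvra (0.44) and Ank1 (0.0562). They did so when centred for Mfsd7b (0.14) and Prdx2 (0.0439), in edgeR for Mfsd7b (0.0553) and Blvra (0.17), and in DESeq2 for Mfsd7b (0.16), Prdx2 (0.0600) and Blvra (0.27). Of other genes called lower in EOM, Ppox reached 1.21, Ireb2 1.06, Fth1 1.01, Urod 0.66 and Slc11a2 0.47 when scaled without mitochondrial genes, and Ppox and Ireb2 turned positive in further settings. The cause was not tested. Depth limits the low genes, where 1 read is worth up to 1.55 RPM, and most grafts hold 9 to 67 cells by their labels.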

Other observations

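In the left-out libraries the ratio of Hbb-b1 to Hba-a1 reads was 4.11 in EOM graft Exp1-1, 2.30 and 2.28 in TA grafts Exp1-1 and Exp1-5, 1.4 in TA pre-graft Exp1-1 and 0.272 in EOM pre-graft Exp2-3. The 3 grafts lay above the highest passing pre-graft library, at 2.16, and both pre-graft libraries below it. With both beta genes summed over both alpha genes the order changed, with 1.87 and 1.78 in TA grafts Exp1-1 and Exp1-5, below the highest passing pre-graft library at 1.98, and 3.76 in EOM graft Exp1-1. These libraries failed the quality table, and no test was made. The share of Hba-a2 in alpha reads was 21.7% and 24.3% in the left-out TA grafts and 10.4% in the left-out EOM graft, the reverse of the order among passing grafts, where EOM grafts had 12.5% to 19.4% and TA grafts 5.73% and 7.91%.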
